A study of Mus musculus with 9 samples.

Results

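Gene expression of D-ME-iPSC and D-TF-iPSC was compared on 6 arrays, 3 of each, chosen by their labels out of the 9 arrays of the series. D-ME-iPSC were mouse induced pluripotent stem cells (iPSCs) made from mammary epithelial (ME) cells and then differentiated, and D-TF-iPSC were iPSCs made from tail-tip fibroblasts and differentiated in the same way. The comparison asks how far cells of a different origin differ after the same mammary protocol. The other 3 arrays, of freshly isolated ME cells, were kept out of the test.

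Both groups had been reprogrammed with retroviruses for the 4 factors Oct4, Sox2, Klf4 and c-Myc, together with a lentiviral EGFP reporter, on a layer of mouse embryonic fibroblasts. Donors of ME cells were virgin females of 2 and 6 months, and donors of tail-tip fibroblasts were 2 months old, with no sex stated. Cells with and without a LacZ transgene were used in the study, and the sources do not say which went onto the arrays. Both kinds of iPSCs spent 3 days on Matrigel, a basement membrane extract, and were then replated for 6 further days. Each step used mammary epithelial medium with serum and Matrigel, with less of each in the second. The sources used here do not give the clone, donor age or passage behind each array, nor whether the 3 arrays of a group were separate cultures. P-values therefore measure only the spread between these arrays. No array of undifferentiated iPSCs or of fibroblasts entered the comparison.

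Mammary epithelium is a bilayer. Inner luminal cells carry keratins such as Krt8 and Krt18, tight junctions and, in lactation, milk proteins, while outer basal cells carry Krt5, Krt14 and the transcription factor Trp63 together with contractile proteins. Fibroblasts lack these junctions and instead secrete fibrillar collagens and the enzymes that shape them.

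Values are log2 levels, each gene being the mean of its probe sets (a median of 8 a gene), and differences are D-ME-iPSC minus D-TF-iPSC, so 1 unit is a fold of 2. On all 6 arrays the median probe set lay between 7.56 and 7.6. Pearson's r over the 20422 genes was 0.995 to 0.996 between D-ME-iPSC arrays, 0.994 to 0.996 between D-TF-iPSC arrays and 0.954 to 0.960 across the groups, as a description over genes. The array labelled ME replicate 1, which was not compared, correlated at 0.991 to 0.993 with D-ME-iPSC arrays but only at 0.920 to 0.943 with the other freshly isolated arrays. The cultures were measured in bulk, so fewer cells of a type and less RNA per cell cannot be told apart in any value below.

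By limma, 7816 genes were called at an adjusted p under 0.05, which is 38.3% of those tested. Of these, 4213 were higher in D-ME-iPSC (20.6% of all genes) and 3603 lower (17.6%). A fold of at least 2 as well was met by 612 higher genes (3.00%) and 479 lower genes (2.35%). The 3 arrays of each group did not overlap for 48.4% of all genes, called or not. The counts below are read against these shares, and the median difference over all genes was -0.01. At a fold of at least 4 there were 143 higher and 75 lower genes, and at a fold of at least 8 there were 29 and 12.

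**Figure D1:**
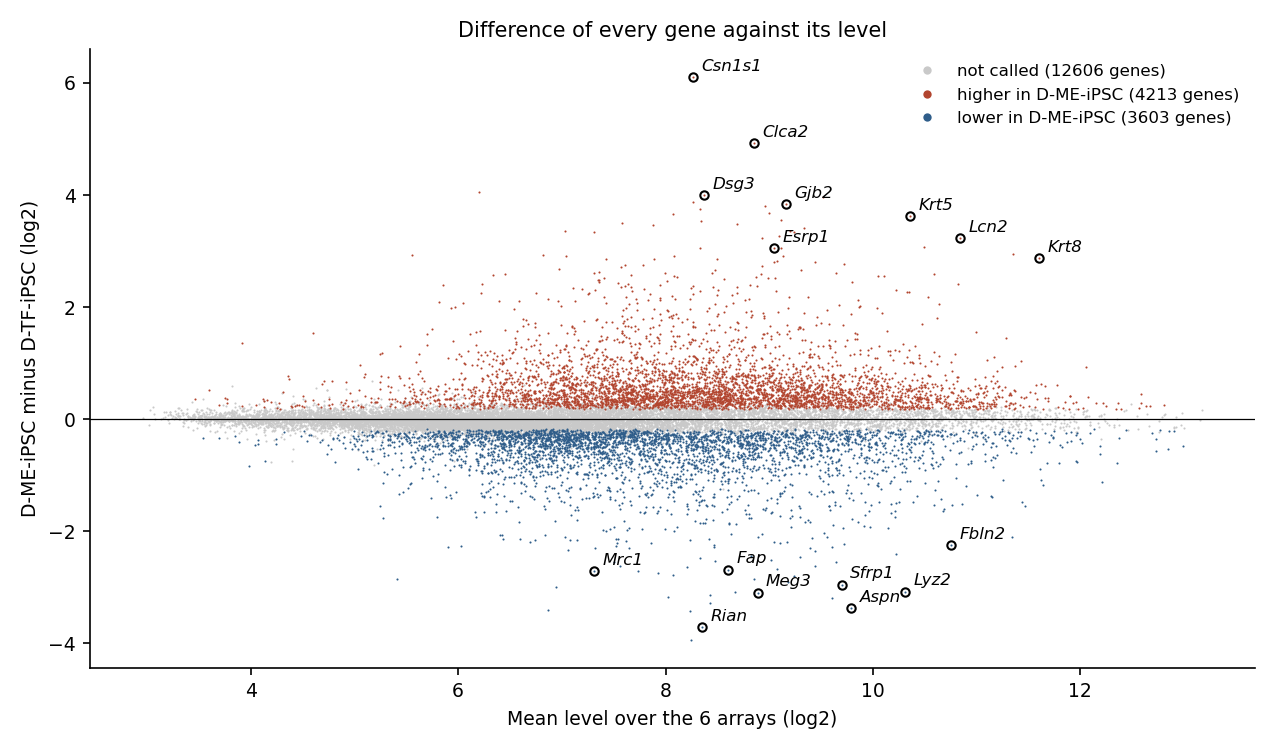
Difference between the groups (log2, D-ME-iPSC minus D-TF-iPSC, vertical axis) of each of the 20422 genes against its mean level over the 6 arrays (log2, horizontal axis), coloured by limma's call. Csn1s1 stands highest at 6.10, and Rian is the lowest of the circled and labelled genes at -3.71.

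The milk protein gene Csn1s1 had the largest difference of all genes. Csn1s1, which encodes an alpha casein, had levels of 11.31, 11.29 and 11.35 in D-ME-iPSC against 5.26, 5.16 and 5.23 in D-TF-iPSC. Every D-ME-iPSC array was far above every D-TF-iPSC array, a difference of 6.10 (standard error 0.06, adjusted p = 4.6e-10). Whether the D-TF-iPSC level exceeded background was not tested, so the difference may be understated and no fold is given. All 16 of its probe sets kept the groups apart, with differences between 2.38 and 8.16. Gjb2, a connexin of epithelial gap junctions, reached 11.04, 11.11 and 11.11 in D-ME-iPSC against 7.15, 7.26 and 7.33 in D-TF-iPSC (3.84, adjusted p = 9.7e-09). Krt5, the type II keratin of basal cells, had 12.21, 12.12 and 12.19 in D-ME-iPSC against 8.79, 8.51 and 8.34 in D-TF-iPSC (3.63, adjusted p = 8.9e-08). Neither gene overlapped between the groups, and all 4 and 13 of their probe sets were apart. Esrp1, a splicing factor of epithelial cells, had 10.51, 10.62 and 10.59 in D-ME-iPSC against 7.49, 7.69 and 7.39 in D-TF-iPSC, a difference of 3.05 (standard error 0.09, a fold of 8.28, adjusted p = 6.8e-08). Aldh1a3, a retinaldehyde dehydrogenase of luminal progenitors, had 10.07, 10.04 and 10.11 in D-ME-iPSC against 7.69, 7.67 and 7.74 in D-TF-iPSC, a difference of 2.38 (standard error 0.06, a fold of 5.2, adjusted p = 4.8e-08). These 2 genes were also apart on every array, Aldh1a3 in 14 of its 15 probe sets. From the brightest probe set alone the differences were smaller, 2.43 for Csn1s1, 2.09 for Gjb2 and 1.61 for Esrp1.

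Fap, Meg3 and Lyz2 lay on the other side. Fap, a membrane-bound serine protease found on activated fibroblasts, had 7.19, 7.34 and 7.25 in D-ME-iPSC against 9.86, 10.05 and 9.93 in D-TF-iPSC, a difference of -2.69 (standard error 0.08, a fold of 6.43, adjusted p = 6.4e-08). Meg3, a maternally expressed noncoding RNA of the Dlk1-Dio3 imprinted locus, had 7.27, 7.41 and 7.34 in D-ME-iPSC against 10.43, 10.50 and 10.39 in D-TF-iPSC, a difference of -3.10 (standard error 0.07, a fold of 8.55, adjusted p = 2.1e-08). Both were lower on each D-ME-iPSC array than on any D-TF-iPSC array, in all 28 and all 5 probe sets. Lyz2, the lysozyme of macrophages, had 8.90, 8.52 and 8.90 in D-ME-iPSC against 11.71, 11.81 and 12.03 in D-TF-iPSC, a difference of -3.07 (standard error 0.12, a fold of 8.42, adjusted p = 2.7e-07). Its 3 probe sets were all apart, although Lyz1 is a near-identical copy whose RNA the probes may share. The plot of marker levels adds 10 further genes of the same kinds, none of which overlapped. Among these, Mmp13, Aspn and Ogn were partly picked for not overlapping. Over all genes the share without overlap was 48.4%.

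**Figure D2:**
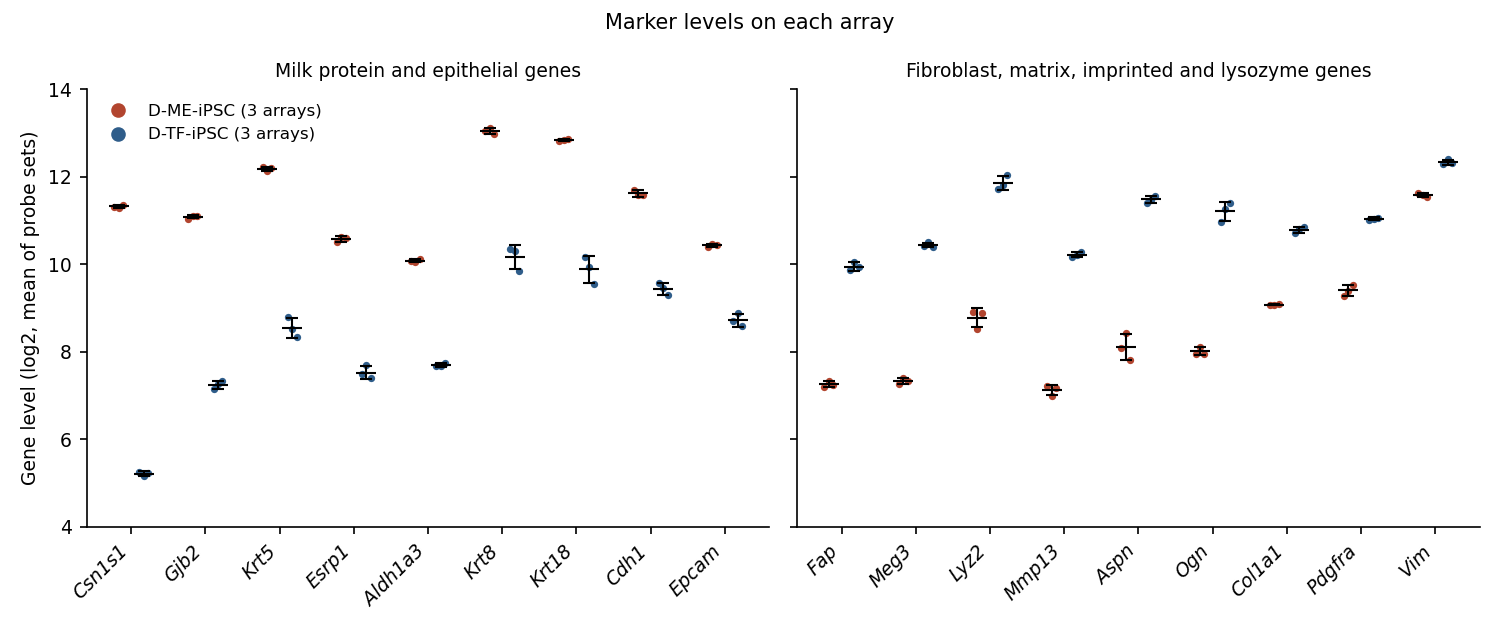
Levels (log2, vertical axis) of the named genes (horizontal axis) on each array, D-ME-iPSC left and D-TF-iPSC right of each position, with the mean and SD over 3 arrays in black. No gene shown overlaps between the groups, and the difference runs from 6.10 for Csn1s1 to -3.37 for Aspn.

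Promoter windows of 6 genes are shown so that members that moved together can be set side by side: the neighbouring caseins Csn1s1 and Csn2, the epithelial genes Gjb2 and Krt5, and Mmp13 and Meg3 on the fibroblast-derived side. Each runs from 250 bases before to 50 after the start annotated by RefSeq on GRCm38.p6, and capitals mark matches on either strand to TTCNNNGAA (the Stat5 motif), GCCNNNGGC (AP-2), CAGGTG with its reverse CACCTG (E-box) or TGANTCA (AP-1). Csn1s1 is chr5:87665958-87666257 (+), Csn2 chr5:87699376-87699675 (-), Gjb2 chr14:57104653-57104952 (-), Krt5 chr15:101712856-101713155 (-), Mmp13 chr9:7272264-7272563 (+) and Meg3 chr12:109540746-109541045 (+).
Csn1s1: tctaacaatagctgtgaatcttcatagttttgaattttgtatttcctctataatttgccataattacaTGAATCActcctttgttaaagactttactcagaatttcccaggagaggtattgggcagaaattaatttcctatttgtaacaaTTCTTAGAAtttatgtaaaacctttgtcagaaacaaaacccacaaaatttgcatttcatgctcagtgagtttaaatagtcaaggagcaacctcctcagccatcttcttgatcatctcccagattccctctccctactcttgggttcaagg
Csn2: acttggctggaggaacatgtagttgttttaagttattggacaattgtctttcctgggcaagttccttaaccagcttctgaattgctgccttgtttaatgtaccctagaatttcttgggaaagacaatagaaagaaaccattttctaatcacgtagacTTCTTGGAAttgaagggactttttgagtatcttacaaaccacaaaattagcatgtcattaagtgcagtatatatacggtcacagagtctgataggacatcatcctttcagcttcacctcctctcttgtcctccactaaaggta
Gjb2: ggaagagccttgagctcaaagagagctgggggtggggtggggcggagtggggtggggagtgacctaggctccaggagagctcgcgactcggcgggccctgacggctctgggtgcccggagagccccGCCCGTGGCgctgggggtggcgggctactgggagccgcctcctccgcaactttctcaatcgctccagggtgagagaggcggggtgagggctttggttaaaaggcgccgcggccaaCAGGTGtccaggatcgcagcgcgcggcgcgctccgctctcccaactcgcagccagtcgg
Krt5: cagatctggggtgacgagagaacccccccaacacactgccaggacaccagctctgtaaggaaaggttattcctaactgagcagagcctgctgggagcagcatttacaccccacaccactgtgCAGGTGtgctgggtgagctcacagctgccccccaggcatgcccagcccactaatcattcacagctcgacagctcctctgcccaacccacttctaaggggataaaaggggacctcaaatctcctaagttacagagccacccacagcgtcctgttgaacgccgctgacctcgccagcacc
Mmp13: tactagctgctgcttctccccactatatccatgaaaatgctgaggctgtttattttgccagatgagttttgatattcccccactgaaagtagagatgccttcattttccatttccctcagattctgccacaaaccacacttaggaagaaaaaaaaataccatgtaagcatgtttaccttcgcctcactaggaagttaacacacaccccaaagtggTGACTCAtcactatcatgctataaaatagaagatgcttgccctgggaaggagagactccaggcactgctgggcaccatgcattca
Meg3: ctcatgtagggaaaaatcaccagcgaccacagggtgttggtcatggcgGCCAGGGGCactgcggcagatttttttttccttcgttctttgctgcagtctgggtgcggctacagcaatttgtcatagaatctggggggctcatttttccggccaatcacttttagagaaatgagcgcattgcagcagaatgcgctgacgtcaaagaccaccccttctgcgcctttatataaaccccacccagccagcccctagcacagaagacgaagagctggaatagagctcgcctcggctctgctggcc

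Both caseins held a Stat5 match at a similar place, TTCTTAGAA beginning 100 bases before the start in Csn1s1 and TTCTTGGAA beginning 93 bases before it in Csn2. Stat5 carries the prolactin signal in mammary cells. An E-box stood 9 bases before the start of Gjb2 and 128 before that of Krt5, and an AP-1 match 35 bases before that of Mmp13. Csn1s1 also held an AP-1 match, 182 bases before its start, and AP-2 matches stood 124 bases before the start of Gjb2 and 202 before that of Meg3. No matches overlapped, and the window of a second Meg3 start, not shown, held no match. Of 32851 windows of this length, 8.30% held a Stat5 match, 16.6% an AP-2 match, 20.2% an E-box and 7.81% an AP-1 match. A match is a string of letters and was not tested as a binding site. Windows were given for 89 of the 139 genes picked by the naming rule.

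Milk genes did not all differ alike. Of 15 milk protein and secretion genes, 9 were higher in D-ME-iPSC and 2 lower, with a median difference of 0.67. The caseins led: Csn2, beta casein, had 8.65, 8.60 and 8.77 in D-ME-iPSC against 6.13, 5.88 and 6.14 in D-TF-iPSC (2.63, adjusted p = 1.4e-07), and Csn3, which caps the casein micelle, had 9.06, 9.07 and 8.88 in D-ME-iPSC against 7.07, 7.14 and 7.21 in D-TF-iPSC (1.86, adjusted p = 3.2e-07). Both were higher on every D-ME-iPSC array. Csn1s2a was higher by 1.62, whereas Csn1s2b differed by only -0.02 (adjusted p = 0.898). Wap and Lalba, genes of full lactation, were not called: Wap, the whey acidic protein, at 6.63 ± 0.16 in D-ME-iPSC against 6.80 ± 0.16 in D-TF-iPSC, and Lalba, a subunit of lactose synthase, at 5.48 ± 0.07 in D-ME-iPSC against 5.60 ± 0.15 in D-TF-iPSC (mean ± SD, n = 3 each). Genes of the milk fat globule split, with Muc1 (1.53), Btn1a1 (1.09) and Plin2 (0.86) higher and Xdh lower (-0.43). Spp1, osteopontin, was lower, 11.95 ± 0.02 in D-ME-iPSC against 12.43 ± 0.06 in D-TF-iPSC. Csn2 rested on 4 of its 5 probe sets, since its brightest differed by 0.01 between the groups and the median of its probe sets by 4.71, and Spp1 lost its call with the brightest probe set (-0.07). With the brightest probe set 5 milk genes were higher and 1 lower, and in a fit to all 9 arrays, where the freshly isolated arrays share in the spread, 5 and 0, with Csn2 among those no longer called.

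Genes of luminal progenitors were higher as far as they were called. Among 13 genes, 11 were higher in D-ME-iPSC and 0 lower, with a median of 2.14. Ltf, lactoferrin, had 9.27, 9.43 and 9.31 in D-ME-iPSC against 5.90, 5.81 and 5.77 in D-TF-iPSC and a difference of 3.51. The Ets factors Ehf and Elf5, which act in luminal and alveolar cells, differed by 2.91 and 2.46, and Kit, the stem cell factor receptor, by 1.80. All 4 genes were higher on every D-ME-iPSC array than on any D-TF-iPSC array, which for Ltf was part of its choice. Expi, now named Wfdc18, a secreted protease inhibitor of mammary epithelium, lay well over the array median in both groups, 11.89 ± 0.11 in D-ME-iPSC against 9.30 ± 0.11 in D-TF-iPSC. Mfge8, a milk fat globule protein, and Cyp24a1 were not called.

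Mature luminal genes moved in both directions. Of 13 genes, 7 were higher and 2 lower, with a median of 0.39. Krt8, Krt18 and Krt19, keratins of simple epithelium, had differences of 2.88, 2.95 and 3.42. Their levels were not low in D-TF-iPSC: Krt8 had 13.05, 13.11 and 12.97 in D-ME-iPSC against 10.34, 10.30 and 9.85 in D-TF-iPSC, and Krt18 12.81, 12.83 and 12.85 in D-ME-iPSC against 10.16, 9.94 and 9.54 in D-TF-iPSC. The groups did not overlap, yet all D-TF-iPSC arrays lay well over the array median for both keratins. Gata3, a factor needed for luminal identity, was higher by 1.70, and Prom1, a surface marker of luminal cells, by 1.49. Foxa1, a partner of the estrogen receptor, and Tbx3, a T-box factor, were higher by 0.39 and 0.46. Esr1, the estrogen receptor, was not called at 7.28 ± 0.17 in D-ME-iPSC against 7.29 ± 0.04 in D-TF-iPSC, and Pgr, the progesterone receptor, was lower by a small amount, 7.51 ± 0.14 in D-ME-iPSC against 7.88 ± 0.13 in D-TF-iPSC. Tnfsf11, the RANK ligand that Pgr-positive cells release, was lower as well (-0.74). Pgr lost its call without D-ME-iPSC replicate 3 (-0.30), D-TF-iPSC replicate 2 (-0.35) or D-TF-iPSC replicate 3 (-0.32), and with the median of its probe sets.

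Basal genes were more often higher than lower. Of 20 basal and myoepithelial genes, 10 were higher in D-ME-iPSC, 2 were lower and 8 were not called, with a median of 0.39. Krt14 and Krt17, partners of Krt5 in the basal layer, differed by 2.76 and 3.34, while the basal keratin gene Krt15 was not called (0.12). Trp63, the p53 relative that maintains basal cells, had 9.79, 9.86 and 9.95 in D-ME-iPSC against 7.58, 7.43 and 7.54 in D-TF-iPSC, a difference of 2.35 (standard error 0.07, a fold of 5.11, adjusted p = 1e-07). Its groups did not overlap. The integrins Itga6 and Itgb4, which anchor basal cells, differed by 1.34 and 1.55, and Sox10, a factor of basal and neural crest cells, by 1.08. Of the contractile genes, Acta2, smooth muscle actin, had 12.82 ± 0.03 in D-ME-iPSC against 12.98 ± 0.03 in D-TF-iPSC, Cnn1, calponin, 10.68 ± 0.08 in D-ME-iPSC against 10.67 ± 0.06 in D-TF-iPSC, and Tagln, transgelin, 10.96 ± 0.01 in D-ME-iPSC against 10.89 ± 0.09 in D-TF-iPSC, none of them called. Mylk, the kinase of myosin light chain, and Oxtr, the oxytocin receptor, were not called either (-0.16 and 0.22). Myl9, a myosin light chain, was lower (-0.59) and Myh11, a smooth muscle myosin, higher (1.20). Snai2, a zinc-finger factor of basal cells and mesenchyme, was the other lower gene (-0.91). Trp63 differed by 0.64 in its brightest probe set, and Myl9 lost its call in a fit to all 9 arrays.

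The junction genes formed one of the most complete groups. Of 25 epithelial junction genes, 22 were higher and 0 lower in D-ME-iPSC, 19 of them by a fold of at least 2, with a median of 1.71. Cdh1, E-cadherin, had 11.70, 11.57 and 11.57 in D-ME-iPSC against 9.57, 9.46 and 9.29 in D-TF-iPSC (2.17, adjusted p = 2.5e-07). Epcam, an epithelial adhesion molecule, had 10.39, 10.47 and 10.43 in D-ME-iPSC against 8.71, 8.87 and 8.58 in D-TF-iPSC (1.71, adjusted p = 8e-07). Both were higher on every D-ME-iPSC array, and in D-TF-iPSC both still lay over the array median. Of the claudins, which seal tight junctions, Cldn1 differed by 3.05, Cldn4 by 2.22, Cldn7 by 1.66 and Cldn3 by 1.27. Desmosome genes were higher too, among them the cadherins Dsg2 (2.46) and Dsc2 (2.15), the linker Dsp (2.27) and the plaque protein Pkp1 (2.08). Gjb6 and Evpl, a connexin and a cornified envelope protein, were not called (0.08 and 0.06), nor was Tjp3 (0.10).

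Regulators of the epithelial state gave a like count. Of 18 epithelial regulators and proteases, 17 were higher, 0 were lower and Ovol2 alone was not called (0.03), with a median of 1.61. Grhl2, a factor that keeps epithelial genes on, had 9.04, 9.16 and 9.28 in D-ME-iPSC against 6.58, 6.38 and 6.26 in D-TF-iPSC. Zfp750, a zinc-finger factor of squamous epithelium, had 9.69, 10.02 and 10.05 in D-ME-iPSC against 7.11, 6.76 and 7.35 in D-TF-iPSC. St14, the membrane protease matriptase, and its inhibitors Spint1 and Spint2 were all higher, by 2.60, 2.29 and 1.71. None of these 5 genes overlapped between the groups. The AP-2 factors Tcfap2a and Tcfap2c, as the file names them, were higher by 1.97 and 1.38.

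Keratinocyte genes were either higher or not called. Of 19 epidermal genes, 10 were higher, 0 were lower and 9 were not called. Dsg3, the desmosomal cadherin of the lower layers, had 10.28, 10.41 and 10.42 in D-ME-iPSC against 6.53, 6.46 and 6.14 in D-TF-iPSC, a difference of 3.99. Krt6a, Krt16 and Krt6b, keratins that epidermis makes when it is wounded or dividing fast, differed by 3.75, 2.59 and 1.70, with Krt6a and Krt6b near-identical copies whose signals may mix. Sfn, 14-3-3 sigma, was higher by 2.27. Genes of cornifying layers were of both kinds. Casp14, a protease of cornification, Tgm1, which cross-links the cornified envelope, and the envelope proteins Ivl and Sprr1b were higher by 1.42, 1.24, 0.87 and 0.73, while Krt1, Krt10, Lor and Flg were not called, with differences of 0.02, -0.22, -0.19 and -0.04. The levels of these 4 genes were 6.17 to 7.31 in D-ME-iPSC and 6.14 to 7.54 in D-TF-iPSC. The brightest probe set gave 0.77 for Krt16 and put 2 epidermal genes on the lower side.

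Outside the gene lists, the largest differences toward D-ME-iPSC belonged to genes of several functions. Clca2, a chloride channel accessory protein of epithelia, had 11.31, 11.29 and 11.32 in D-ME-iPSC against 6.39, 6.50 and 6.27 in D-TF-iPSC, a difference of 4.92 (standard error 0.07, a fold of 30.3, adjusted p = 5.3e-09). Chi3l1, now Chil1, a secreted chitinase-like glycoprotein, differed by 3.96, Ceacam1, an adhesion molecule of the immunoglobulin family, by 3.80, and S100a14 by 3.87. Mal2, which serves transport across polarized epithelia, differed by 3.67, and Fam83b by 3.65. Pdk4, a kinase that holds back pyruvate oxidation, and Slc28a3, a nucleoside transporter, differed by 3.55 and 3.54. The naming rule took only genes whose arrays did not overlap, so their separation is part of the choice. Bex1 differed by 4.05 but is read by 1 probe set, and the brightest probe set of Chi3l1 gave 0.68. On the lower side outside the lists stood 9930013L23Rik (-3.93), described with the matrix genes, 9930111J21Rik (-3.29), Nov, now Ccn3, a matricellular protein (-3.18), and Plac8 (-2.90).

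**Figure D3:**
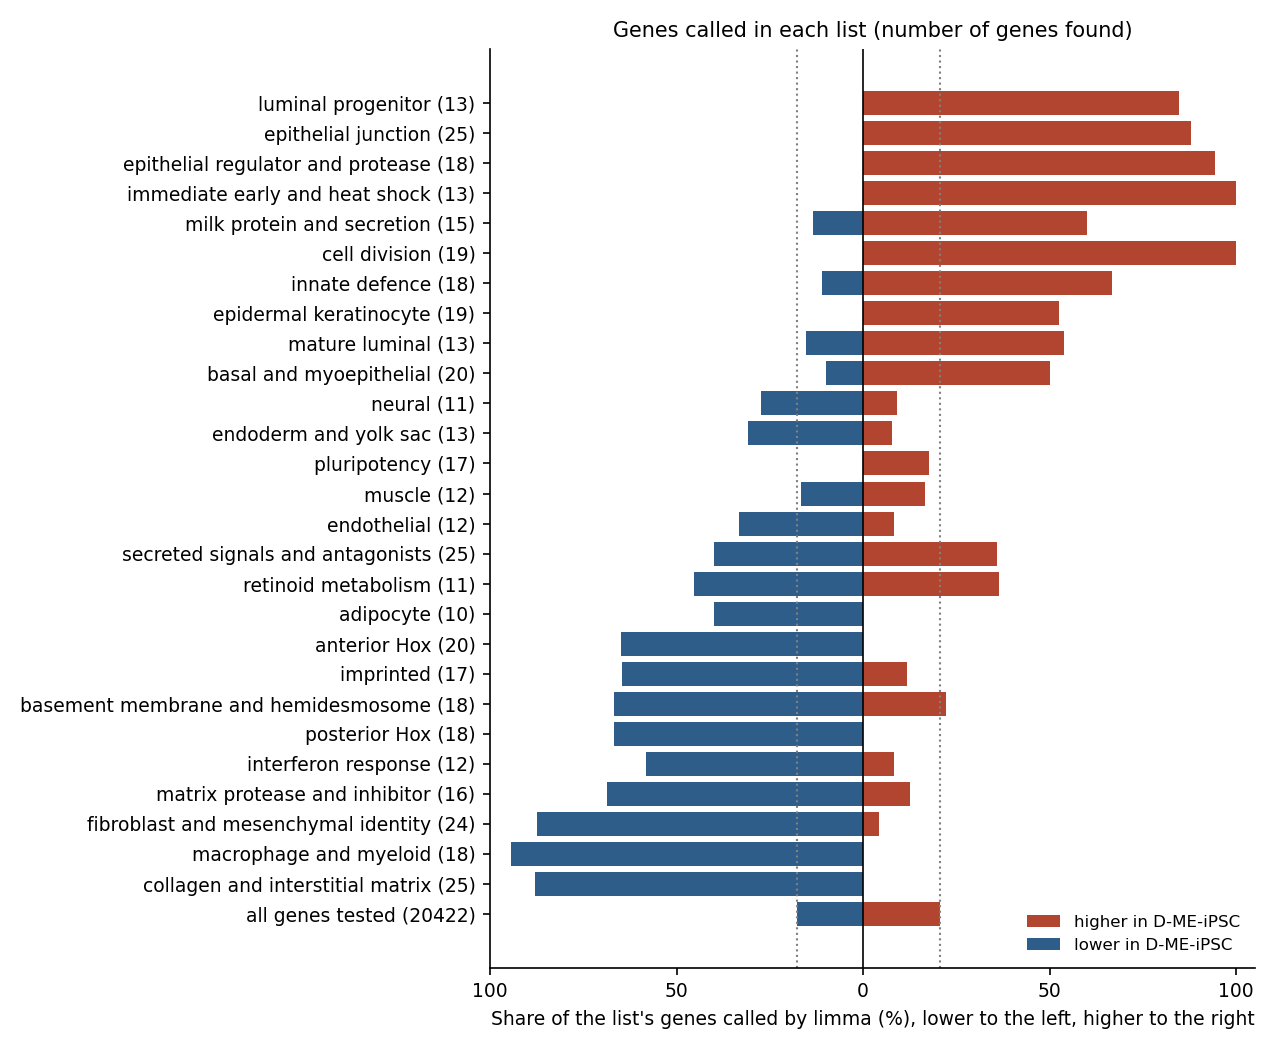
Share of each list's genes (number found in brackets) called higher in D-ME-iPSC (right, %) or lower (left, %) by limma, lists ordered by their median difference, with dotted lines at the shares over all genes, 20.6% higher and 17.6% lower, and the sex-linked list left out. Junction, regulator and luminal progenitor lists lie almost wholly right, and collagen, macrophage and fibroblast lists almost wholly left.

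Collagens and their matrix partners were lower in D-ME-iPSC. Of 25 collagen and interstitial matrix genes, 0 were higher and 22 lower, 13 of them by a fold of at least 2, with a median of -1.09. Aspn and Ogn, small leucine-rich proteoglycans that bind collagen, had the largest differences of the list. Aspn had 8.08, 8.42 and 7.82 in D-ME-iPSC against 11.40, 11.47 and 11.57 in D-TF-iPSC, a difference of -3.37 (standard error 0.14, a fold of 10.4, adjusted p = 2.8e-07). Ogn had 7.95, 8.12 and 7.96 in D-ME-iPSC against 10.96, 11.26 and 11.39 in D-TF-iPSC, a difference of -3.19 (standard error 0.11, a fold of 9.16, adjusted p = 1.4e-07). Each of their 10 probe sets kept the groups apart. The fibrillar chains Col1a1, Col1a2, Col3a1 and Col5a2 differed by -1.71, -1.94, -1.80 and -2.28, and Pcolce, which speeds procollagen cleavage, by -2.22. Lox and Loxl1, which cross-link collagen and elastin, differed by -1.51 and -1.20. Fn1, fibronectin, was only slightly lower, 12.75 ± 0.04 in D-ME-iPSC against 12.96 ± 0.05 in D-TF-iPSC, and Tnc, tenascin, was not called at 12.27 ± 0.03 in D-ME-iPSC against 12.37 ± 0.01 in D-TF-iPSC. Col1a1 stayed over the array median in D-ME-iPSC, with 9.07, 9.07 and 9.08 in D-ME-iPSC against 10.71, 10.80 and 10.84 in D-TF-iPSC. With the brightest probe set the collagen differences shrank to -0.61 for Col1a1, -0.32 for Col1a2 and -0.77 for Col5a2.

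Fibroblast identity genes gave a count of the same kind. Of 24 genes, 21 were lower, 12 by a fold of at least 2, and Lum, a collagen-binding proteoglycan, was the single higher one, with 8.84, 8.86 and 8.82 in D-ME-iPSC against 8.31, 8.19 and 8.04 in D-TF-iPSC (0.66, adjusted p = 0.00018). Fbln2, an elastic fibre glycoprotein, differed by -2.25, and S100a4, a calcium-binding protein of motile cells, by -2.41. Pdgfra and Pdgfrb, the growth factor receptors of mesenchyme, differed by -1.63 and -1.54. Zeb1 and Zeb2, repressors of Cdh1 and other epithelial genes, had differences of -1.31 and -1.49, and Twist1 of -0.69. Vim, the mesenchymal intermediate filament, had 11.64, 11.58 and 11.54 in D-ME-iPSC against 12.28, 12.39 and 12.31 in D-TF-iPSC (-0.74). Dcn, decorin, and Cdh2, N-cadherin, were not called (-0.17 and -0.10). Lum lost its call in a fit to all 9 arrays. The brightest probe set gave -0.67 for Fbln2, -0.49 for Pdgfra and -0.38 for Vim.

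Proteases and inhibitors of the matrix were mostly lower. Of 16 genes, 2 were higher and 11 lower, with a median of -0.64. Mmp13, a collagenase, had 7.23, 7.00 and 7.17 in D-ME-iPSC against 10.16, 10.21 and 10.27 in D-TF-iPSC, a difference of -3.08 (standard error 0.08, a fold of 8.48, adjusted p = 4.7e-08). No array overlapped, which was part of its choice, and all 11 probe sets were apart. Adamts12 and Adamts5, proteases of matrix proteoglycans and glycoproteins, differed by -1.89 and -1.53, and Reck, an anchored inhibitor of metalloproteinases, by -1.56. Mmp9, a gelatinase, went the other way (0.95), as did Adamts1 (0.69). Timp1 and Timp3, secreted inhibitors, were not called. The lowest difference of all genes belonged to 9930013L23Rik, now Cemip, a protein needed to break down hyaluronan, with 6.27, 6.27 and 6.29 in D-ME-iPSC against 10.05, 10.23 and 10.36 in D-TF-iPSC (-3.93). Its arrays did not overlap, which was part of its choice, and 31 of its 32 probe sets were apart. With all 9 arrays fitted 7 proteases and inhibitors were lower and 1 higher, and Mmp9 lost its call.

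Basement membrane genes moved in both directions. Of 18 genes, 4 were higher and 12 lower. The higher ones were Lamb3 and Lama3, chains of the laminin of hemidesmosomes (1.64 and 1.37), Col17a1, a hemidesmosome collagen (0.96), and Lama5 (0.60). Lama2, the chain of muscle and mesenchyme, had 7.98, 8.00 and 8.02 in D-ME-iPSC against 10.25, 10.20 and 10.17 in D-TF-iPSC (-2.20, adjusted p = 5.7e-08). Lamb3 had 9.06, 9.12 and 9.08 in D-ME-iPSC against 7.47, 7.45 and 7.42 in D-TF-iPSC (1.64, adjusted p = 1.8e-07). Both genes kept the groups apart, in opposite directions. The nidogens Nid1 and Nid2, which link laminin to collagen, and Col4a1, the network collagen, differed by -1.64, -1.20 and -0.97. Col17a1 lost its call with the median of its 54 probe sets (0.37), and the brightest probe set gave 2.60 for Lamb3, -1.06 for Nid1 and -2.23 for Nid2. Fitting all 9 arrays left 7 of the genes lower rather than 12.

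Retinoid enzymes also divided, within one family. Of 11 genes, 4 were higher and 5 lower, with a median of -0.18. Aldh1a3 was higher, while the other retinaldehyde dehydrogenases were lower: Aldh1a2 had 7.30, 6.91 and 7.05 in D-ME-iPSC against 9.50, 9.60 and 9.62 in D-TF-iPSC (-2.48, adjusted p = 2.8e-07) and Aldh1a1 7.06, 6.56 and 6.78 in D-ME-iPSC against 8.58, 8.71 and 8.97 in D-TF-iPSC (-1.95, adjusted p = 7.5e-06). Arrays of the 3 genes did not overlap. Aldh1a7, a near-identical relative of Aldh1a1 whose probes may read both, differed by -3.40. Rdh10, which oxidizes retinol, was higher (1.80), and Dhrs3, which runs the reverse step, lower (-1.18). Crabp2, which carries retinoic acid to its receptor, was higher by 1.28, and Rarb, a receptor gene that retinoic acid induces, was not called (-0.18). In a fit to all 9 arrays 3 of the genes were lower, and the brightest probe set gave -5.20 for Aldh1a7.

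**Figure D4:**
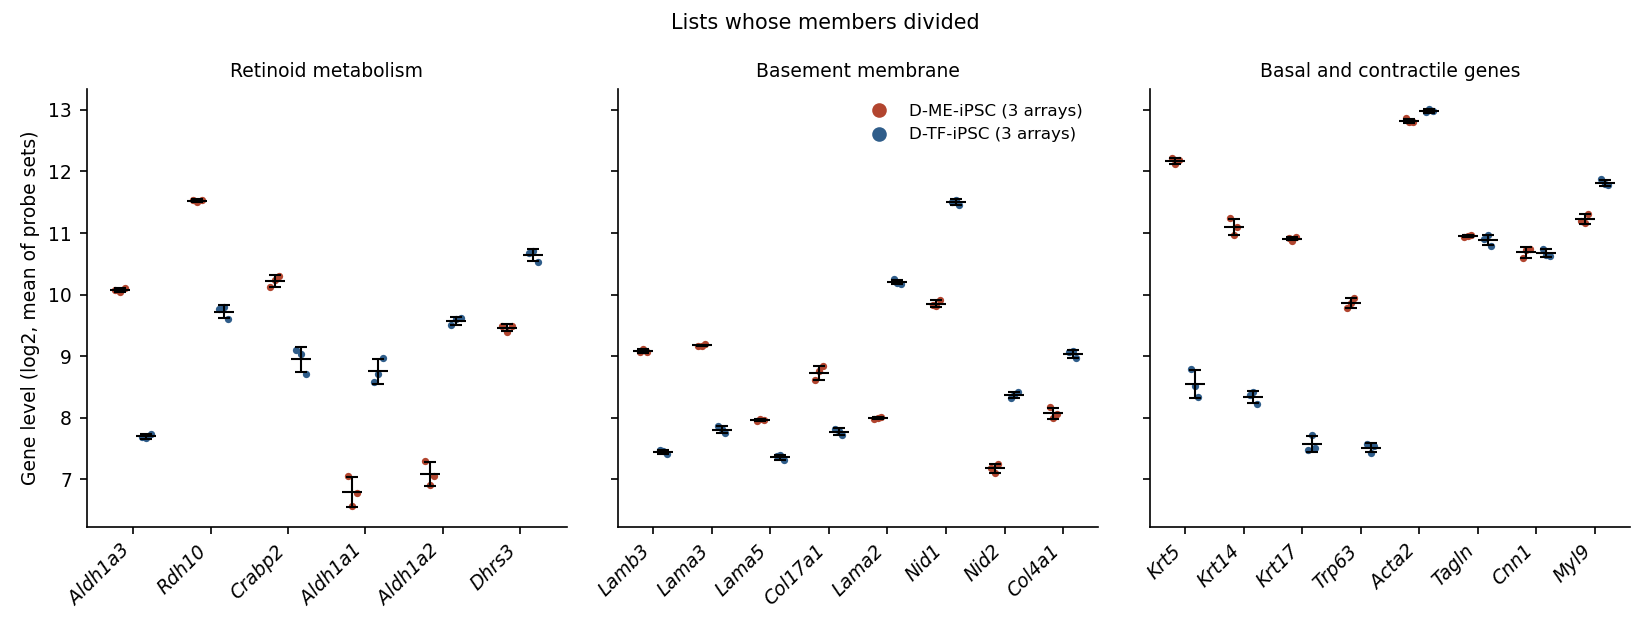
Levels (log2, vertical axis) of retinoid, basement membrane, and basal and contractile genes (horizontal axis) on each array, D-ME-iPSC left and D-TF-iPSC right of each position, with the mean and SD over 3 arrays in black. Aldh1a3 and Lamb3 lie higher in D-ME-iPSC, Aldh1a2 and Lama2 lower, and Acta2, Tagln and Cnn1 lie close together.

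Secreted signals went both ways. Of 25 genes, 9 were higher and 10 lower. The Wnt antagonists Sfrp1, Dkk2 and Sfrp2 were lower, Sfrp1 with 8.22, 8.27 and 8.19 in D-ME-iPSC against 10.87, 11.22 and 11.44 in D-TF-iPSC, a difference of -2.95 (standard error 0.13, a fold of 7.73, adjusted p = 4.3e-07). Dkk2 and Sfrp2 differed by -2.55 and -1.37. Among BMP genes, Bmp7 was higher (1.57) and Bmp4 lower (-0.60), and of the antagonists Fst was higher (1.43) and Grem1 lower (-1.02). The EGF receptor ligands Btc, Hbegf and Ereg were higher by 1.13, 1.03 and 0.62, while Egfr itself was not called (0.05). Igfbp5, an insulin-like growth factor binding protein of the mammary gland, was higher by 1.15, and Igf1 was lower (-0.57). When all 9 arrays were fitted, 4 of these genes were higher and 5 lower.

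Defence genes of epithelium were higher. Of 18 innate defence genes, 12 were higher and 2 lower, with a median of 0.54. Lcn2, which binds bacterial siderophores, had 12.43, 12.47 and 12.46 in D-ME-iPSC against 9.33, 9.31 and 9.04 in D-TF-iPSC, a difference of 3.23 (standard error 0.09, a fold of 9.37, adjusted p = 5.7e-08). C3, complement, differed by 2.13, Cd14, a coreceptor for bacterial endotoxin, by 2.14, and Slpi, an antiprotease, by 1.81. The cytokines Tnf and Il1a were higher by 2.31 and 2.12. Lyz2 and the acute phase gene Saa3 were the lower ones, and Saa3 (-0.52) lost its call when any of 4 single arrays was left out, replicates 1 (-0.49) and 2 (-0.50) of D-ME-iPSC and replicates 2 (-0.47) and 3 (-0.39) of D-TF-iPSC. Lcn2 differed by 1.82 in its brightest probe set.

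Markers of macrophages were lower in D-ME-iPSC together with Lyz2. Of 18 genes, 17 were lower and 0 higher, 10 by a fold of at least 2, with a median of -1.04. The mean of the list's log2 levels was 6.62 to 6.67 on the D-ME-iPSC arrays and 7.68 to 7.85 on the D-TF-iPSC arrays. Mrc1, the mannose receptor, had 5.94, 5.90 and 6.02 in D-ME-iPSC against 8.40, 8.59 and 9.00 in D-TF-iPSC, a difference of -2.71 (standard error 0.14, a fold of 6.57, adjusted p = 9.2e-07). Cd68, a lysosomal protein, had 7.88, 8.10 and 8.12 in D-ME-iPSC against 9.34, 9.63 and 9.69 in D-TF-iPSC (-1.52). Emr1, which encodes the F4/80 antigen and is now Adgre1, differed by -1.52, and Ptprc, the common leukocyte antigen, by -0.95. Csf1r, the receptor on which macrophages depend, was not called, at 6.71 ± 0.09 in D-ME-iPSC against 6.66 ± 0.04 in D-TF-iPSC. Other lower genes known from macrophages were Gm11428, now Wfdc17 (-3.41), and the chemokine Ccl12 (-2.99). The part of other cell types in the fibroblast and matrix values was not tested. With the brightest probe set 11 of the macrophage genes were lower and Mrc1 differed by -1.03, and in a fit to all 9 arrays Cd68 and Ptprc were not called.

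Interferon genes were lower for the most part. Of 12 genes, 7 were lower and 1 higher, with a median of -0.51. Ifit3, Isg15 and Ifit1, which interferon induces, had differences of -1.81, -1.62 and -1.34. Isg15 had 8.34, 8.29 and 8.57 in D-ME-iPSC against 10.05, 9.98 and 10.03 in D-TF-iPSC. Its arrays did not overlap. Cxcl10, an interferon-induced chemokine, was the higher one (0.98), and Mx1, Rsad2, Gbp2 and Oas1a were not called. Cxcl10 lost its call in a fit to all 9 arrays. AI451617, now Trim30d, outside the list, differed by -3.13.

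Cell division genes and immediate early genes were higher in D-ME-iPSC throughout their lists. All 19 cell division genes were higher, 2 of them by a fold of at least 2, with a median of 0.66. The replication helicase genes Mcm3 and Mcm5 differed by 1.25 and 1.08, the spindle checkpoint kinase gene Bub1 by 0.94, and Mki67, a protein of dividing cells, by 0.58. Only 2 of the 19 were called in a fit to all 9 arrays, with Mcm3 and Bub1 among those lost. All 13 immediate early and heat shock genes were higher too, 7 by a fold of at least 2, with a median of 1.09. Atf3, a stress-induced factor, had 10.30, 10.30 and 10.30 in D-ME-iPSC against 7.72, 7.55 and 7.43 in D-TF-iPSC, a difference of 2.73 (standard error 0.08, a fold of 6.63, adjusted p = 8.8e-08). Fos, a partner of Jun in AP-1, had 9.51, 9.44 and 9.48 in D-ME-iPSC against 7.25, 7.15 and 7.19 in D-TF-iPSC (2.28). On both genes the groups were far apart. Ier3 and Hspa1a, whose RNA is nearly identical to that of Hspa1b, differed by 2.05 and 1.72. Fos differed by 3.80 in its brightest probe set.

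**Figure D5:**
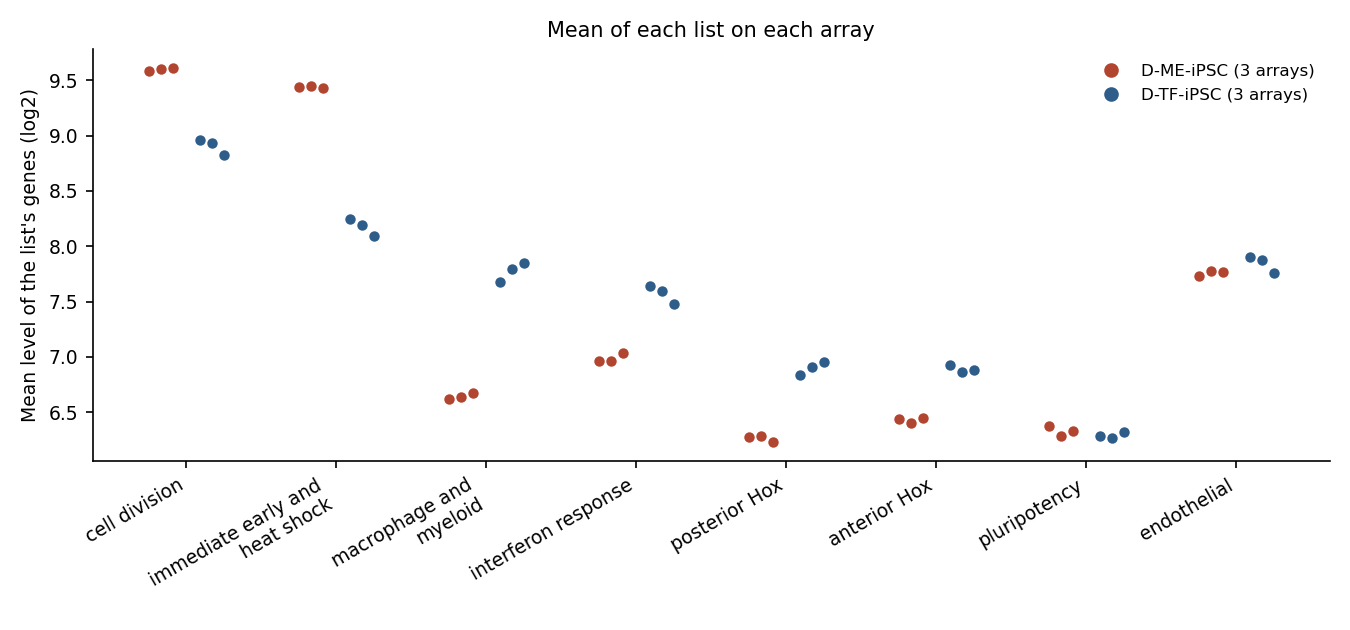
Mean level of each list's genes (log2, vertical axis) on each array, D-ME-iPSC left and D-TF-iPSC right of each position. Cell division genes average 9.58 to 9.61 in D-ME-iPSC against 8.82 to 8.96 in D-TF-iPSC and macrophage genes 6.62 to 6.67 in D-ME-iPSC against 7.68 to 7.85 in D-TF-iPSC, while pluripotency genes overlap.

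Imprinted genes were mostly lower. Of 17 genes, 11 were lower and 2 higher, with a median of -0.39. Rian, a second noncoding RNA of the Meg3 locus, had 6.52, 6.54 and 6.43 in D-ME-iPSC against 10.28, 10.19 and 10.16 in D-TF-iPSC from its 1 probe set, a difference of -3.71 (standard error 0.07, a fold of 13.1, adjusted p = 9.7e-09). Dlk1, the protein-coding gene of that locus expressed from the paternal copy, differed by only -0.25 (adjusted p = 0.0499). Sgce, Grb10, Mest and Ndn, from other imprinted loci, differed by -2.04, -1.44, -1.39 and -1.07. Igf2 and Peg3 were not called (-0.13 and -0.05). H19 and Nnat were the higher ones, by 0.32 and 0.38, and both lost their calls with the median of the probe sets. In a fit to all 9 arrays 7 imprinted genes were lower and 0 higher.

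Hox genes, which record position along the body axis, were lower wherever they were called. Of 18 posterior Hox genes, 12 were lower and 0 higher, with a median of -0.50. Of 20 anterior Hox genes, 13 were lower and 0 higher, with a median of -0.32. Hoxc6 had 7.21, 7.00 and 7.24 in D-ME-iPSC against 9.08, 9.20 and 8.97 in D-TF-iPSC (-1.93, adjusted p = 5.9e-07). Hoxb9, Hoxc13 and Hoxc8 differed by -1.57, -1.55 and -1.36, and Hoxa5 by -1.03. Hoxd10, Hoxd11, Hoxd12, Hoxd13, Hoxc11 and Hoxa13 were not called. Hoxc13, of hair and nail, averaged 6.05 ± 0.07 in D-ME-iPSC against 7.60 ± 0.09 in D-TF-iPSC, with 2 of its 3 probe sets apart. The brightest probe set gave -3.18 for Hoxc13 and -1.83 for Hoxa5, and Hoxc6 was -1.22 with the median of its 3 probe sets. Of the anterior Hox genes, 6 were lower with the brightest probe set, Hoxb6 no longer among them, and 7 in a fit to all 9 arrays.

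Most pluripotency genes were not called. Of 17 genes, 3 were higher and 0 lower, with a median of -0.03. Pou5f1 had 5.73, 5.57 and 5.50 in D-ME-iPSC against 5.67, 5.61 and 5.88 in D-TF-iPSC, Nanog 7.12, 6.75 and 6.91 in D-ME-iPSC against 7.18, 6.90 and 6.78 in D-TF-iPSC and Sox2 6.12, 5.88 and 5.96 in D-ME-iPSC against 5.89, 5.89 and 6.11 in D-TF-iPSC. The arrays of the groups overlapped for all 3, and none was called. All lay under the array median of 7.56 to 7.6. The Y-linked gene Kdm5d averaged 5.64 ± 0.06 in D-ME-iPSC against 5.65 ± 0.04 in D-TF-iPSC and Uty 4.61 ± 0.07 in D-ME-iPSC against 4.37 ± 0.01 in D-TF-iPSC, while Xist, the RNA of the inactive X chromosome, averaged 10.83 ± 0.10 in D-ME-iPSC against 11.52 ± 0.12 in D-TF-iPSC, lower in D-ME-iPSC (-0.69). Uty was called at a difference of 0.23, with 3 of its 27 probe sets apart, and lost that call without D-ME-iPSC replicate 2 (0.19). Eif2s3y, also Y-linked, averaged 4.11 in D-ME-iPSC against 4.13 in D-TF-iPSC, and neither it nor Kdm5d was called. Klf4 and Myc, which epithelial and dividing cells also express, were higher by 0.80 and 0.44, and Utf1 by 0.25. Whether RNA of the 4 retroviral factors added to these levels was not tested. With all 9 arrays fitted Myc and Utf1 lost their calls, with the median of the probe sets Klf4 (0.27) and Utf1, and with the brightest probe set Nanog was called lower (-0.35). The call of Utf1 was also lost without replicate 2 (0.25) or 3 (0.22) of D-ME-iPSC, and without replicate 1 (0.22) or 2 (0.25) of D-TF-iPSC.

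Markers of other lineages were called in both directions. Of 12 endothelial genes 1 was higher and 4 lower, and of 12 muscle genes 2 and 2. Of 11 neural genes 1 was higher and 3 lower, of 13 endoderm genes 1 and 4, and of 10 adipocyte genes 0 and 4. Over all genes 20.6% were higher and 17.6% lower, so these counts are not read as a result about these lineages. Ncam1, a neural adhesion molecule also found on mesenchyme, had 9.24, 9.42 and 9.36 in D-ME-iPSC against 11.15, 11.05 and 10.85 in D-TF-iPSC (-1.68), and Tubb3, a neuronal tubulin, differed by -1.16. Lpl, lipoprotein lipase, and Fabp4, a fatty acid carrier, were lower (-1.84 and -0.96), while Adipoq was at 4.71 ± 0.09 in D-ME-iPSC against 4.84 ± 0.18 in D-TF-iPSC and not called. Gata6, a factor of endoderm and mesoderm, differed by -1.19, whereas Afp, Alb and Ttr, liver and yolk sac genes, were not called. Tnnt2, cardiac troponin T, was higher (1.31) but differed by 0.02 with the brightest probe set, which gave -2.38 for Gata6. In a fit to all 9 arrays Ncam1, Tubb3, Fabp4 and Tnnt2 were not called, and neither were any of the endothelial genes, of which Vwf (0.24) turned to -0.31 with the brightest probe set, as did the endoderm gene Sox17 (0.24) to -0.20. Each of 4 single arrays ended the call of Vwf when left out, with values of 0.20 to 0.23, and each of 5 that of Sox17, with values of 0.16 to 0.27.

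Within D-TF-iPSC the list means moved in small steps between arrays, described here for lists picked after their values were seen. Replicate 3 had the lowest mean of the epithelial junction genes, 7.36 against 7.40 and 7.48 on the other D-TF-iPSC arrays, and the highest mean of collagen genes, 10.46 against 10.37 and 10.41. Its macrophage mean was also the highest, 7.85 against 7.68 and 7.79. Krt18 was lowest on replicate 3, at 9.54, whereas Gjb2 was highest there among the D-TF-iPSC arrays, at 7.33, so single genes did not share an order. In the junction and collagen lists the D-ME-iPSC arrays spread less, with means of 9.03 to 9.04 and 9.17 to 9.18. Mature luminal means went the other way, at 9.03 to 9.14 in D-ME-iPSC against 8.15 to 8.19 in D-TF-iPSC. Over all genes r was 0.995 to 0.996 between D-ME-iPSC arrays and 0.994 to 0.996 between D-TF-iPSC arrays, so neither group is called the more variable. With any single array left out between 6580 and 7448 genes were called.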

How the data were processed

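Total RNA was hybridised to Affymetrix mouse gene arrays. Values are log2 levels that the authors deposited for 241576 probe sets, made with RMA in Partek per the submitters' processing notes. The sources used here do not give versions, or whether RMA covered all 9 arrays at once. The number of arrays limits the precision. Groups came from the sample titles.

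Of the probe sets, 212138 had 1 gene symbol and were used, 4672 had several and 24766 none listed. A gene's level was the mean of its probe sets, which gave 20422 genes, 17626 with a symbol in current use and 2689 named through a synonym. The 6 arrays were tested with limma 3.58.1 (lmFit and eBayes, R 4.3.3), with 1 mean per group and Benjamini-Hochberg adjustment over all genes, and calls were made at an adjusted p under 0.05. Other steps used the R package data.table (version 1.17.8), Python 3.11.15, pandas 2.3.3, numpy 2.4.6 and matplotlib 3.10.9. The fit was tested on simulated data over 20422 genes for this comparison. It recovered 54% of 200 genes changed by 0.5 on the log2 scale, 95.5% of 200 changed by 1 and 99.5% of 200 changed by 2. In the same order, 5.26%, 4.02% and 2.93% of its calls were false. Far fewer genes changed there than were called in these data, so the shares recovered may not carry over.

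The groups, markers and 28 gene lists (456 of 470 entries found) were chosen with earlier results of these data known. Genes were named by a rule: the 8 markers, the 15 called genes with the largest differences each way whose arrays did not overlap, 3 called members each way of each list, defining markers of other cell types and the sex-linked genes. Other genes named were chosen after their values were seen. Alternatives changed the normalization, the summary of probe sets, the filter, the spread, the arrays, the test and the threshold.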

Additional observations from a re-analysis of the deposited data

How the results depend on the processing

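The count of 7816 called genes changed by over 1.5 times under 3 alternatives. Taking the brightest probe set alone gave 5092 calls (2348 higher and 2744 lower in D-ME-iPSC), all 9 arrays gave 2712 (1395 higher, 1317 lower), and a fold of at least 2 left 1091 (612 higher, 479 lower). The 9-array fit also had 1 mean per group, so its differences equal those on 6 arrays and what changed was the estimated spread. All 2712 of its calls were also called on 6 arrays, in a direction that was thus fixed in advance. The brightest probe set put 65 called genes on the other side. Leaving out 1 array gave 6580 to 7448 calls, 3595 to 4014 of them higher and 2959 to 3434 lower. The methods' t-test gave 8341 genes at an unadjusted p under 0.05 and 6183 after Benjamini-Hochberg adjustment. Nothing in the labels or methods says that equal replicate numbers pair the arrays. Deviations of same-numbered arrays from their group means correlated at -0.081, 0.007 and -0.059, which cannot decide whether they were paired. The replicate block gave 7231 calls. Of the 139 genes picked by the naming rule, 32 lost their call with all 9 arrays, 12 with the median and 11 with the brightest of the probe sets, which also reversed Vwf to -0.31 and Sox17 to -0.20. Calls lost with all 9 arrays were lost at unchanged differences. The cause of the other changes was not tested.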
